A study of Rattus norvegicus with 6 samples.

Results

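The rows described here count the mature miRNAs made from the miR-7 and miR-671 genes, the miRNA partners of the circular RNA Cdr1as, in small RNA libraries of rat cortical neurons. They were taken by name, as rno-miR-7a-5p, rno-miR-7b, rno-miR-7a-1-3p, rno-miR-7a-2-3p and rno-miR-671, and are 5 of the 649 mature miRNAs counted. All 5 were among the 336 miRNAs whose mean level reached 10 RPM in control or in BDNF samples, the study's filter, where RPM are reads scaled to a library of 1000000 reads. The rows were chosen by their known link to Cdr1as and with the BDNF-to-control difference of miR-671 in these same samples already known, so the BDNF differences of all 5 are given as a description, with no test. Cortical neurons were dissociated from Sprague-Dawley rat embryos at embryonic day 18 and kept for 7 days in vitro by the sample labels, whereas the study's legend for these libraries gives 6 days. The 3 BDNF samples received 100 ng/ml brain-derived neurotrophic factor for 20 min, and the 3 control samples received the vehicle, 0.1% BSA. Both groups had been given fluorodeoxyuridine from day 4 to stop the division of non-neuronal cells, and the study describes the 3 samples of each group as biological replicates. The samples are a mixed culture, in which fewer cells of a type and less of an miRNA per cell cannot be told apart.

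A pre-miRNA hairpin is cut by Dicer into a 5′ strand (5p) and a 3′ strand (3p), and the strand that Argonaute keeps finds its targets mainly through the seed, bases 2 to 8. MiR-7 is an ancient miRNA, enriched in brain and in hormone-secreting tissues such as the pituitary and the pancreatic islets. Cdr1as is a circular RNA of neurons with many miR-7 sites and a single, nearly fully paired site for miR-671-5p, at which Argonaute 2 can cut the circle. The long non-coding RNA Cyrano pairs extensively with miR-7 and triggers its destruction, a process called target-directed decay.

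The mature sequences are shown because the seeds decide which rows can share targets and the close similarity of some rows limits how their reads can be told apart. They are from RefSeq (GRCr8), matched by name, with the seed in capitals and all written 5′ to 3′.
rno-miR-7a-5p: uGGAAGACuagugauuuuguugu
rno-miR-7b: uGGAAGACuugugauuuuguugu
rno-miR-7a-1-3p: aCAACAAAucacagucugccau
rno-miR-7a-2-3p: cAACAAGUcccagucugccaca
rno-miR-671: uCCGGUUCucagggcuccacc

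MiR-7a-5p and miR-7b shared the seed GGAAGAC, whose pairing partner in a target is GUCUUCC, and no other of the 583 counted miRNAs with a RefSeq sequence carried it. The 2 sequences differed by 1 substitution, A10U, counted from the 5′ end of miR-7a-5p. The aligner used by the study accepts 1 mismatch, so the split of reads between these 2 rows is uncertain. The strands opposite miR-7a-5p were further apart, with an edit distance of 5 between miR-7a-1-3p and miR-7a-2-3p. Part of this distance lies at the strand ends, where the aligner accepts trimmed or added bases. The fewest mismatches to the miR-7b hairpin were 5 for miR-7a-1-3p and 4 for miR-7a-2-3p. By sequence, each of these 3p rows belongs to a single gene. MiR-7a-1-3p shared its seed with 1 other counted miRNA, miR-3065-5p, which had 0.0958 to 0.771 RPM. The seeds of miR-7a-2-3p and miR-671 occurred in no other counted miRNA with a sequence. MiR-671 was the most GC-rich of the 5, at 66.7%, against 34.8% for both guide strands of miR-7, 40.9% for miR-7a-1-3p and 54.5% for miR-7a-2-3p.

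The hairpins show which strand each row counts, with the counted mature strands in capitals. MiR-7a-5p is made from 2 genes, and reads of this strand do not tell which. The first, Mir7-1 with the synonym Mir7a-1 (chr17:6278692-6278788, plus strand, GRCr8), lies within the span of Hnrnpk, a gene for an RNA-binding protein. The second (chr1:142215800-142215894, plus strand), listed by RefSeq as Mir8 with the synonym Mir7a-2, lies within the lncRNA LOC120099863. The gene of miR-7b (chr9:1167436-1167545, plus strand), listed as Mir9 with the synonym Mir7b, lies within the span of the pseudogene Rpl35l3. Mir671 (chr4:11473194-11473274, minus strand) lies within the span of Chpf2, which encodes a chondroitin polymerizing factor.
Mir7a-1: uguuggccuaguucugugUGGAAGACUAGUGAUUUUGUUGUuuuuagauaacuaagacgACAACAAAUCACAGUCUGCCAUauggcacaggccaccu
Mir7a-2: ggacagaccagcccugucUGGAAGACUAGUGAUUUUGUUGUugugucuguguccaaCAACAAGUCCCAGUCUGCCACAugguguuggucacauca
Mir7b: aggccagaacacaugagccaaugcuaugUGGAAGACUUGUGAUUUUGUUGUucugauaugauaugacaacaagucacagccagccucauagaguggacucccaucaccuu
Mir671: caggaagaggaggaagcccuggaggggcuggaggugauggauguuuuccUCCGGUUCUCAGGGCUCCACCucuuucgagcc

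The row rno-miR-671 carries no arm in its name. By sequence it lay at bases 50 to 70 of the 81-base hairpin, which is the 3′ side. The strand known to cut Cdr1as is miR-671-5p, from the opposite side, and its level was not analysed here. The values of miR-671 below therefore belong to the partner strand of the cleaving miRNA and not to the cleaving miRNA itself. In miR-7, by contrast, the strands with the Cdr1as-binding seed were counted directly, at bases 19 to 41 of both miR-7a hairpins and at bases 29 to 51 of the miR-7b hairpin.

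The libraries held between 10374120 and 12533029 counts, so that 10 RPM stood for 103.7 to 125.3 reads. RPM were computed from the column sums, and TMM-normalized RPM, which are RPM divided by edgeR's scaling factor for each sample, are named where they are used. MiR-9a-5p, the most abundant miRNA, took 25.0% to 33.1% of the counts, and the 5 neuronal marker miRNAs (miR-124-3p, miR-9a-5p, miR-128-3p, miR-137-3p and miR-138-5p) together had 336184 to 412948 RPM. Most of this sum was miR-9a-5p, with 249572 to 331060 RPM. Markers of the other cell types listed were low, with summed levels of 29.7 to 35.5 RPM for the 2 oligodendrocyte miRNAs, 72.0 to 100.9 RPM for the 2 endothelial miRNAs and 56.7 to 103.2 RPM for the 2 of smooth muscle and fibroblasts. Nearly all of the last sum was miR-143-3p, with 56.4 to 103.1 RPM, while miR-145-5p had 0.0856 to 0.482 RPM. No list was made for astrocytes or neural progenitors, so the share of these cells was not assessed. The neuronal sum, most of it miR-9a-5p, was not checked against these cells. The 2 erythroid miRNAs had 2.69 to 6.56 RPM together, and miR-142-5p and miR-142-3p of leukocytes and microglia 1.11 to 2.66 RPM, while miR-223-3p of the same list was not analysed here. The 6 neuroendocrine and epithelial miRNAs (miR-375-3p, miR-200a-3p, miR-200b-3p, miR-200c-3p, miR-141-3p and miR-429), which mark tissues where miR-7 is also high, reached 5.76 to 9.06 RPM together, with miR-141-3p and miR-429 at 0 in some samples. Of the 5 neuronal markers and the 4 others that passed the filter (miR-219a-5p, miR-126a-3p, miR-126a-5p and miR-143-3p), edgeR's quasi-likelihood test called 0 at an unadjusted P-value of 0.05, and with the replicate number as a block it called miR-138-5p and miR-126a-5p, both lower with BDNF. Their adjusted P-values in edgeR with the block were 0.139 and 0.178, and the same fit called 20.5% of the 336 miRNAs at the unadjusted threshold.

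MiR-7a-5p, the main guide strand of miR-7, was the 9th most abundant of the 649 miRNAs. It had 24468, 22501 and 22662 RPM in control replicates 1 to 3 and 21829, 21093 and 21750 RPM in BDNF replicates 1 to 3. This is 2.11% to 2.45% of all counts, and together with miR-7b the seed GGAAGAC made up 2.20% to 2.56%. Its nearest neighbours in abundance were miR-99a-5p, which was higher in all 6 samples, and miR-26a-5p, which was higher than miR-7a-5p in 2 of 6. MiR-7b stood 75th, with 1115, 779 and 917 RPM in control and 974, 877 and 976 RPM in BDNF samples.

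The 3p strands were rarer. MiR-7a-1-3p ranked 222nd, with 50.6, 64.2 and 71.6 RPM in control and 46.1, 48.2 and 50.9 RPM in BDNF samples. MiR-7a-2-3p ranked 253rd, with 28.3, 38.3 and 55.8 RPM in control and 31.7, 32.9 and 41.3 RPM in BDNF samples. MiR-671 was the least abundant of the 5 and ranked 293rd. It had 17.6, 18.03 and 22.1 RPM in control and 22.2, 26.2 and 27.4 RPM in BDNF samples, from 184 to 326 reads per library. The order of the 5 rows was the same within every library. Across libraries, the ranges of miR-7a-1-3p (46.1 to 71.6 RPM) and miR-7a-2-3p (28.3 to 55.8 RPM) overlapped, whereas the other neighbours in this order had separate ranges. Levels of different miRNAs are compared here as reads, and each read stands for a whole miRNA, but adapter ligation and PCR are known to favour some sequences, so a ratio of reads need not be a ratio of molecules.

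**Figure D1:**
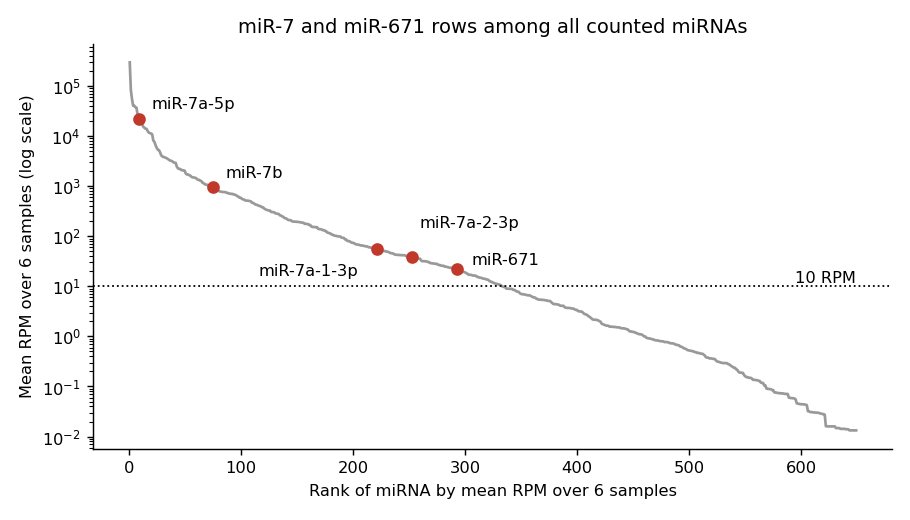
Mean RPM over the 6 samples (log scale) against the rank of each miRNA, with the 5 rows as red points and the 10 RPM filter as a dotted line. The curve spans all 649 miRNAs; miR-7a-5p stands 9th, miR-7b 75th, and the 3p strands and miR-671 between 222nd and 293rd, all above the filter.

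The rows differed in how far replicates spread. MiR-7a-5p had a coefficient of variation of 4.70% in control and 1.87% in BDNF samples (n = 3 each), where the medians over the 336 miRNAs were 15.1% and 14.7%. For miR-7b it was 18.03% and 6.01%, for miR-7a-1-3p 17.2% and 4.94%, and for miR-671 12.8% and 10.8%. MiR-7a-2-3p was the most variable, at 34.2% and 14.9%. In both conditions replicate 3 had the highest level of miR-7a-1-3p, miR-7a-2-3p and miR-671, and replicate 1 the lowest. Over all miRNAs, a control and a BDNF sample of the same number departed from their group means in the same way, so the BDNF and control values are also given within each number.

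MiR-671 was higher in every BDNF sample than in every control sample, although the lowest BDNF value (22.2 RPM) and the highest control value (22.1 RPM) nearly touched. The 95% Wilson intervals of these 2 libraries, 19.6 to 25.0 and 19.4 to 25.1 RPM, overlapped almost fully. They cover counting error only. The mean was 19.2 ± 2.5 RPM in control and 25.2 ± 2.7 RPM in BDNF samples (SD, n = 3 each). Within replicates 1, 2 and 3 the RPM ratio of BDNF to control was 1.26, 1.45 and 1.24. The log2 fold change from edgeR's quasi-likelihood fit with TMM normalization was 0.41 (standard error 0.12).

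MiR-7a-5p was slightly lower in every BDNF sample on the RPM scale. Its mean was 23210 ± 1092 RPM in control and 21557 ± 404 RPM in BDNF samples (SD, n = 3 each), and the ratios within replicates 1 to 3 were 0.892, 0.937 and 0.960. With TMM normalization the ratios within numbers were 0.955, 0.922 and 0.956, but the groups overlapped, with 20966 to 24634 normalized RPM in control and 20051 to 23532 in BDNF samples. The fitted log2 fold change was -0.08 with a standard error of 0.11, larger than the difference itself. MiR-7b had no common direction, with ratios of 0.874, 1.13 and 1.06 and a log2 fold change of 0.03 (standard error 0.15). Its mean was 937 ± 169 RPM in control and 942 ± 57 RPM in BDNF samples (SD, n = 3 each).

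MiR-7a-1-3p, the strand opposite the guide in the Hnrnpk-embedded hairpin, was lower in BDNF samples within each number, with ratios of 0.912, 0.752 and 0.711. On the RPM scale the groups met, since control replicate 1 (50.6 RPM) was below BDNF replicate 3 (50.9 RPM). After TMM normalization the highest BDNF sample (range 46.9 to 49.7 normalized RPM) was below the lowest control sample (range 50.9 to 67.2). The mean was 62.1 ± 10.7 RPM in control and 48.4 ± 2.4 RPM in BDNF samples (SD, n = 3 each), and the log2 fold change was -0.33 (standard error 0.15). MiR-7a-2-3p went up in replicate 1 and down in the others, with ratios of 1.12, 0.859 and 0.741. Its mean was 40.8 ± 13.9 RPM in control and 35.3 ± 5.3 RPM in BDNF samples (SD, n = 3 each), and its log2 fold change was -0.18 (standard error 0.22).

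**Figure D2:**
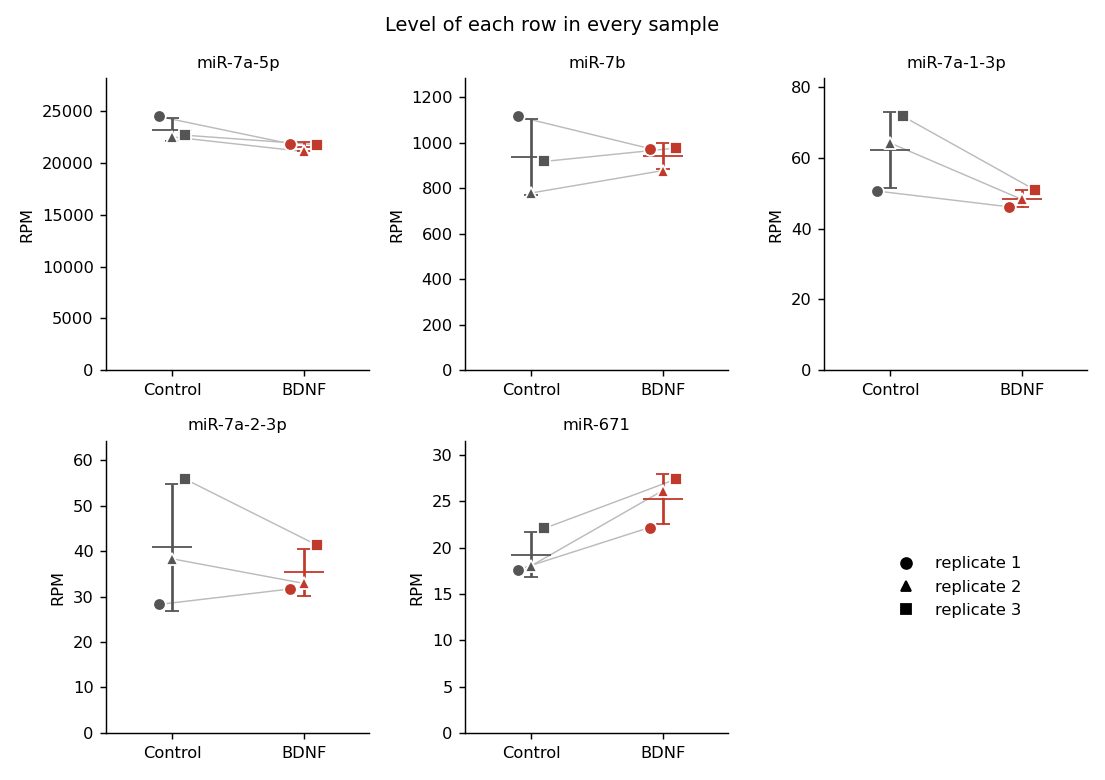
RPM of each row in every sample, on axes that start at 0, with a symbol for each replicate number, grey lines joining the same number, and the mean and SD of each group (n = 3) as bars. MiR-671 is higher in BDNF for each number, miR-7a-5p and miR-7a-1-3p are lower for each number, and miR-7b and miR-7a-2-3p have numbers that go both ways.

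On the RPM scale the groups did not overlap for 2 of the 5 rows, miR-671 and miR-7a-5p, which was the case for 5.36% of the 336 miRNAs. With TMM normalization they did not overlap for miR-671 and miR-7a-1-3p, where the share over all miRNAs was 7.14%. BDNF samples lay above control samples on the RPM scale for 3 miRNAs, miR-671, miR-1306-5p and miR-1843a-3p, the last 2 of which are named after their values were seen. They lay below control samples for 15, among them miR-7a-5p. Within the replicate numbers, 31 of the 336 miRNAs were higher and 101 lower with BDNF in all 3 pairs on the RPM scale, together 39.3%. A common direction in all 3 pairs is thus frequent on this scale, above all a lower one. With the replicate number as a block, the log2 fold changes were 0.41 (standard error 0.09) for miR-671, -0.33 (0.11) for miR-7a-1-3p, -0.15 (0.13) for miR-7a-2-3p, -0.08 (0.06) for miR-7a-5p and 0.05 (0.07) for miR-7b. Over the whole table, edgeR's quasi-likelihood test called 2.98% of the 336 miRNAs at an unadjusted P-value of 0.05 without the block and 20.5% with it. After Benjamini-Hochberg adjustment none of the 336 passed 0.05 in either fit, with a smallest adjusted P-value of 0.999 without and 0.12 with the block in edgeR's quasi-likelihood test.

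**Figure D3:**
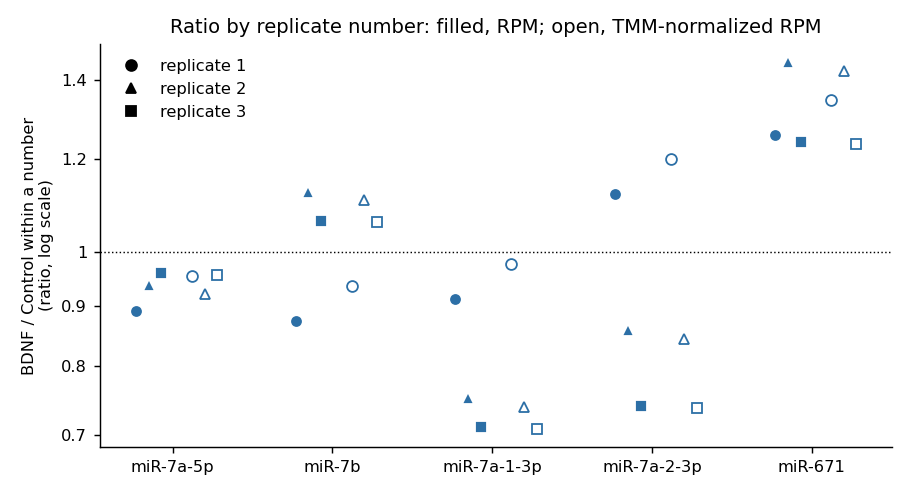
Ratio of the BDNF to the control sample of the same replicate number for each row (log scale, dotted line at 1), from RPM (filled) and TMM-normalized RPM (open). The filled points of miR-671 lie at 1.24 to 1.45 and those of miR-7a-1-3p at 0.711 to 0.912, while miR-7b and miR-7a-2-3p have points on both sides of 1 on either scale.

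The 3p strands give a view of the 2 miR-7a genes that the shared 5p strand cannot give. Of the reads of both 3p strands, miR-7a-1-3p made up 64.2%, 62.6% and 56.2% in control and 59.3%, 59.5% and 55.2% in BDNF samples. The Mir7a-1 hairpin was thus the larger source of 3p reads in all 6 libraries, and the lower end of the 95% Wilson interval stayed above an even split in each, the lowest being 52.2% in BDNF replicate 3. These intervals cover counting error only, and an even split of reads need not be an even split of molecules. Within each number the share was lower with BDNF, with differences of -4.86, -3.16 and -1.01 percentage points. The mean was 61.0 ± 4.2% in control and 58.0 ± 2.4% in BDNF samples (SD, n = 3 each), and the groups overlapped. The difference of the means, -3.01 percentage points, was smaller than the SD of the control samples. This is a share of the 3p reads left in the cell, and how much miR-7a-5p each gene supplied was not measured.

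The guide strand far outnumbered its partners. Reads of miR-7a-5p were 310, 220 and 178 times those of both 3p strands together in control and 281, 260 and 236 times in BDNF samples. On the log2 scale this was 7.84 ± 0.41 in control and 8.01 ± 0.13 in BDNF samples (SD, n = 3 each), and the difference within numbers was -0.15, 0.24 and 0.41, with no common direction. The comparison covers the 83 other precursors whose 5p and 3p rows could be paired by name and both passed the filter. Among these 83 the median size of the log2 ratio was 2.59, and 5 had a larger 5p excess than miR-7a. These were let-7i, miR-100, miR-99a, let-7b and miR-30d, named after their values were seen. None of the 83 had a 3p excess of that size. Precursors with an arm under the filter, or with an arm whose name has no match, such as miR-125b-1-3p, were not compared.

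MiR-7b made up 4.36%, 3.34% and 3.89% of the reads with the miR-7 seed in control and 4.27%, 3.99% and 4.29% in BDNF samples. Within the numbers its share differed by -0.09, 0.65 and 0.41 percentage points. The groups overlapped, with 3.86 ± 0.51% in control and 4.19 ± 0.17% in BDNF samples (SD, n = 3 each). These shares rest on the split of reads between miR-7a-5p and miR-7b, which is uncertain because the aligner accepts 1 mismatch.

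**Figure D4:**
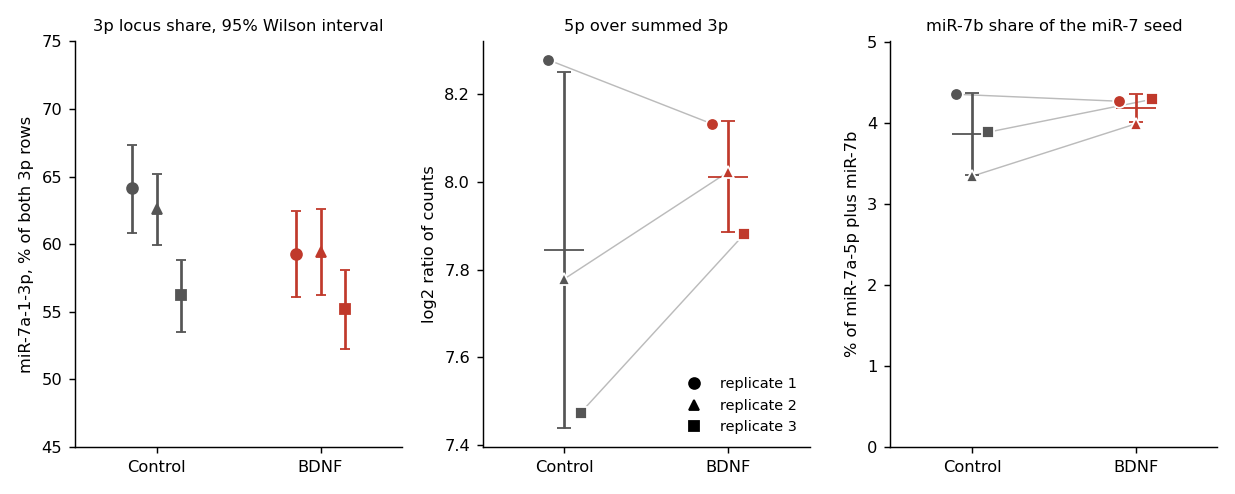
Ratios within each library: the share of miR-7a-1-3p among both 3p rows with its 95% Wilson interval (axis from 45% to 75%), the log2 ratio of miR-7a-5p to the summed 3p rows (axis not from 0), and the share of miR-7b among reads with the miR-7 seed (axis from 0). Symbols mark replicate numbers, and bars in the last 2 panels are mean and SD (n = 3); the 3p share is above 55% in all 6 libraries and the groups overlap in all 3 panels.

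MiR-7a-5p and the counted strand of miR-671 were about 3 orders of magnitude apart. Reads of miR-7a-5p were 1388, 1248 and 1027 times those of miR-671 in control and 985, 806 and 794 times in BDNF samples. The log2 ratio was 10.24 ± 0.22 in control and 9.74 ± 0.17 in BDNF samples (SD, n = 3 each), with differences of -0.50, -0.63 and -0.37 within the numbers. The groups did not overlap, and the fitted log2 fold changes behind this ratio were 0.41 for miR-671 and -0.08 for miR-7a-5p. This ratio needs no scaling between libraries. It holds the miR-671 difference that was known when the rows were chosen, so it is no separate observation, and ratios of other miRNAs were not set beside it.

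The miRNAs most like miR-7a-5p in their pattern over the 6 samples were let-7i-5p, miR-146b-5p and miR-376b-3p. Their log2 RPM, centred on their own mean, differed from that of miR-7a-5p by 0.028, 0.029 and 0.044 on average, against a median of 0.17 over the other tested miRNAs. The patterns nearest to miR-671 were those of miR-673-5p, miR-770-3p and miR-125b-1-3p, with mean differences of 0.053, 0.11 and 0.12, against a median of 0.26. MiR-673-5p had 8.05 to 12.1 RPM and a mean of 9.78 RPM over the 6 samples. It thus passed the filter of 10 RPM only through the BDNF group, where it was higher, and its likeness to miR-671 is partly a result of that filter. All these likenesses are over 6 samples that share replicate numbers, and include the BDNF difference.

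MiR-7 is a known substrate of target-directed decay, and 8 other miRNAs known as substrates were set beside it. Among them, the row of miR-335 carries no arm in its name, and whether it counts the substrate strand was not checked. MiR-29b-3p had 3.27 to 4.19 RPM, under the filter. Of the 7 tested, edgeR's quasi-likelihood test called 0 at an unadjusted P-value of 0.05 (10 of all 336 miRNAs), and DESeq2 also called 0 (12 of all 336). Their median log2 fold change was -0.01, against -0.0015 over all 336 miRNAs, and 3 of the 7 were above 0. The nearest to the threshold was miR-30b-5p, with 592 ± 72 RPM in control and 488 ± 88 RPM in BDNF samples (SD, n = 3 each), a log2 fold change of -0.26 (standard error 0.11) and an adjusted P-value of 0.999 in edgeR. The values of miR-335 were 288 ± 24 and 234 ± 43 RPM, those of miR-222-3p 214 ± 46 and 241 ± 11 RPM, and those of miR-322-5p 23.2 ± 6.8 and 18.3 ± 4.6 RPM. MiR-30c-5p, miR-221-3p and miR-503-5p had log2 fold changes of 0.08, 0.08 and -0.01. With the replicate block, 4 of the 7 passed the unadjusted threshold, miR-30b-5p, miR-335 and miR-322-5p with lower and miR-222-3p with higher levels, and their adjusted P-values in edgeR were 0.166, 0.166, 0.166 and 0.211. Without the block, leaving out a single sample brought 1 of the 7 past the unadjusted threshold in 3 of the 6 fits, namely miR-222-3p without control replicate 1, miR-335 without BDNF replicate 1 and miR-30b-5p without BDNF replicate 3. Among all tested miRNAs these fits called 32 of 337, 11 of 337 and 11 of 336, in the same order. The share of 4 in 7 with the block stands beside the 20.5% of all miRNAs given above and is a description of a small list.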

How the data were processed

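Small RNA libraries of 3 control and 3 BDNF samples were analysed, grouped and numbered by the sample titles. The authors trimmed the 3′ adapter, filtered reads by quality, removed reads under 15 nt and matched what was left with Miraligner to the mature rat sequences of miRBase v21 (1 mismatch, up to 3 nt trimmed or added). The deposited values are raw read counts per mature miRNA, without normalization. The version of Miraligner and the treatment of reads that fit several miRNAs are not given in the sources used here. Counts were tested with edgeR 4.0.16 (R 4.3.3, TMM, quasi-likelihood) for the 336 miRNAs whose mean reached 10 RPM in either group, without a block. The standard error is the log2 fold change divided by the square root of F. DESeq2 1.42.0, other normalizations and filters, a replicate block and omission of each sample were alternatives. The code was tested on simulated data. Samples with the same number correlated in their deviations from group means (r = 0.80, 0.48 and 0.89 for numbers 1 to 3 across miRNAs), so the numbers were taken as pairs; no source states what a number marks. Replicates differed by more than sampling noise, with chi-square values of at least 120.5 per degree of freedom. Miraligner counts carry no molecular identifiers, so intervals cover counting error only. The miRNAs described and the lists were chosen with earlier results of these data known. Named miRNAs are the 5 rows, the listed markers and decay substrates, the 3 nearest patterns to miR-7a-5p and miR-671, and miRNAs that share a seed or neighbour a row in abundance. MiR-1306-5p, miR-1843a-3p and the precursors of let-7i, miR-100, miR-99a, let-7b and miR-30d fall outside this rule and were named after their values were seen. Counts per isomiR were not analysed here.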

Additional observations from a re-analysis of the deposited data

How the results depend on the processing

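All 5 log2 fold changes stayed within 1 SD of the spread between replicates under the 12 alternatives (60 values), as did the 30 ratios by replicate number and the 16 values of the within-library ratios. With 3 values, leaving out a sample or replicate number could hardly move a mean by 1 SD. Those values are therefore no check of robustness. The log2 fold change of miR-671 ranged from 0.37 to 0.48 with each sample left out and that of miR-7a-1-3p from -0.43 to -0.26. MiR-7a-2-3p ranged from -0.35 to 0.06, the last without control replicate 3, and miR-7b from -0.05 to 0.22, so neither has a firm direction. The count of miRNAs past the unadjusted threshold, 10, was 6 with library size only and 69 with the replicate block, and ranged from 3 (without control replicate 2) to 32 (without control replicate 1) when a sample was left out, with 5 without BDNF replicate 2 and 6 without control replicate 3. The replicate block took the count for the decay substrates from 0 to 4, DESeq2 left it at 0, and it ranged from 0 to 1 when a sample was left out (1 without control replicate 1, BDNF replicate 1 or BDNF replicate 3), an alternative chosen after seeing the data. Those 3 fits called 32, 11 and 11 of all tested miRNAs. The cause of these shifts was not tested. Depth limits miR-671 most, at 184 to 326 reads per library.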
